A study of Mus musculus with 12 samples.

Results

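The genes described here are 45 cell cycle and DNA replication genes, among them the proliferation marker Mki67, the S-phase helicase subunits Mcm2 to Mcm7, the mitotic kinase Cdk1 with its cyclins, and the spindle and anaphase genes Aurkb, Cenpa and Cdc20. They were taken by symbol from a table of 27825 genes, and all 45 were found in it. They were followed in sorted cells from the mesentery and the epididymal fat pad of mice on chow or on a high fat diet. In brief, all 45 had a positive log2 change on the high fat diet in the epididymal libraries. Of these, 4 passed the test across all genes, and none did without high-fat epididymal library C. In the mesentery 32 were positive and none passed. No member passed the test of whether the diet change differed between the tissues.

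A cell enters the division cycle when D and E cyclins release E2F factors from the retinoblastoma protein, and E2F factors then switch on the genes that license replication origins and supply nucleotides. Cdk1 with A and B cyclins later drives entry into mitosis, and the anaphase-promoting complex with Cdc20 and Ube2c destroys the B cyclins to end it. Most endothelial cells of adult vessels rest outside the cycle, and macrophages of obese adipose tissue are known to divide locally.

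The animals were male ROSA26-eYFP+/+ Cdh5-CreERT2+ mice, in which tamoxifen turns on a yellow fluorescent reporter in cells that use the promoter of Cdh5, an endothelial cadherin. All 4 groups shared this genotype and a tamoxifen diet given for 2 weeks from 6 weeks of age. At 8 weeks of age they were put on chow (5.8% fat) or on the high fat diet (60% fat), which lasted 12 to 13 weeks. Tissues of 6 mice were pooled per sample, digested with the transcription blocker actinomycin D, sorted and sequenced as total RNA. Each combination of tissue and diet has 3 libraries, lettered A, B and C, although the protocol speaks of 2 independent replicates. The p-values therefore measure the spread between these pooled samples, some of which may not be independent. The mesentery and epididymal libraries of 1 letter and diet carry the same number in the labels: 50, 51 and 87 on chow, and 88, 52 and 53 on the high fat diet.

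The libraries held 8348897 to 25397963 reads in genes, so that 3 reads, taken as the floor of detection, were worth 2.12 to 4.22 normalised counts. A normalised count is the number of reads of a gene after adjustment for the depth of the library. All 45 genes passed the filter for testing, an average of 10 or more across all libraries. Their means ran from 14.3 to 1204, 7 lay under 50, and 32 exceeded 3 reads in every library. Endothelial markers were present in every library: the 15 pan-endothelial markers summed to between 54841 and 217310 normalised counts, and Cdh5 itself lay between 2172 and 4822. Pancreatic acinar genes were high in the mesentery, with sums of 47975 to 305078 normalised counts over 8 genes against 183 to 557 in epididymal fat.

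Among epididymal libraries, the whole set lay higher on the high fat diet. The normalised counts of the 45 genes summed to 4805, 5789 and 4789.6 on chow and to 11951, 8869 and 15946 on the high fat diet. The log2 change of every member was positive, 45 of 45 where 57.9% of all genes tested were positive, and the median change over the members was 1.73 against 0.10 over all genes. In 31 members the lowest high-fat library lay above the highest chow library, which was true of 6.93% of all genes; the reverse held for no member, against 6.57% of all genes. Cdk1, Ube2c, Birc5 and Cenpa passed the test across all genes (limma, Benjamini-Hochberg adjusted p under 0.05), 4 of 45 where 0.549% of all genes passed in either direction and 0.418% passed as higher. The other 41 missed that threshold, and 23 members had an unadjusted p under 0.05, as had 6.94% of all genes. Giving every library the same total moved the median over all genes to -0.04, leaving 44 of 45 members positive and 2 past the test, Cdk1 and Cenpa. In that fit 0.472% of all genes passed.

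**Figure D1:**
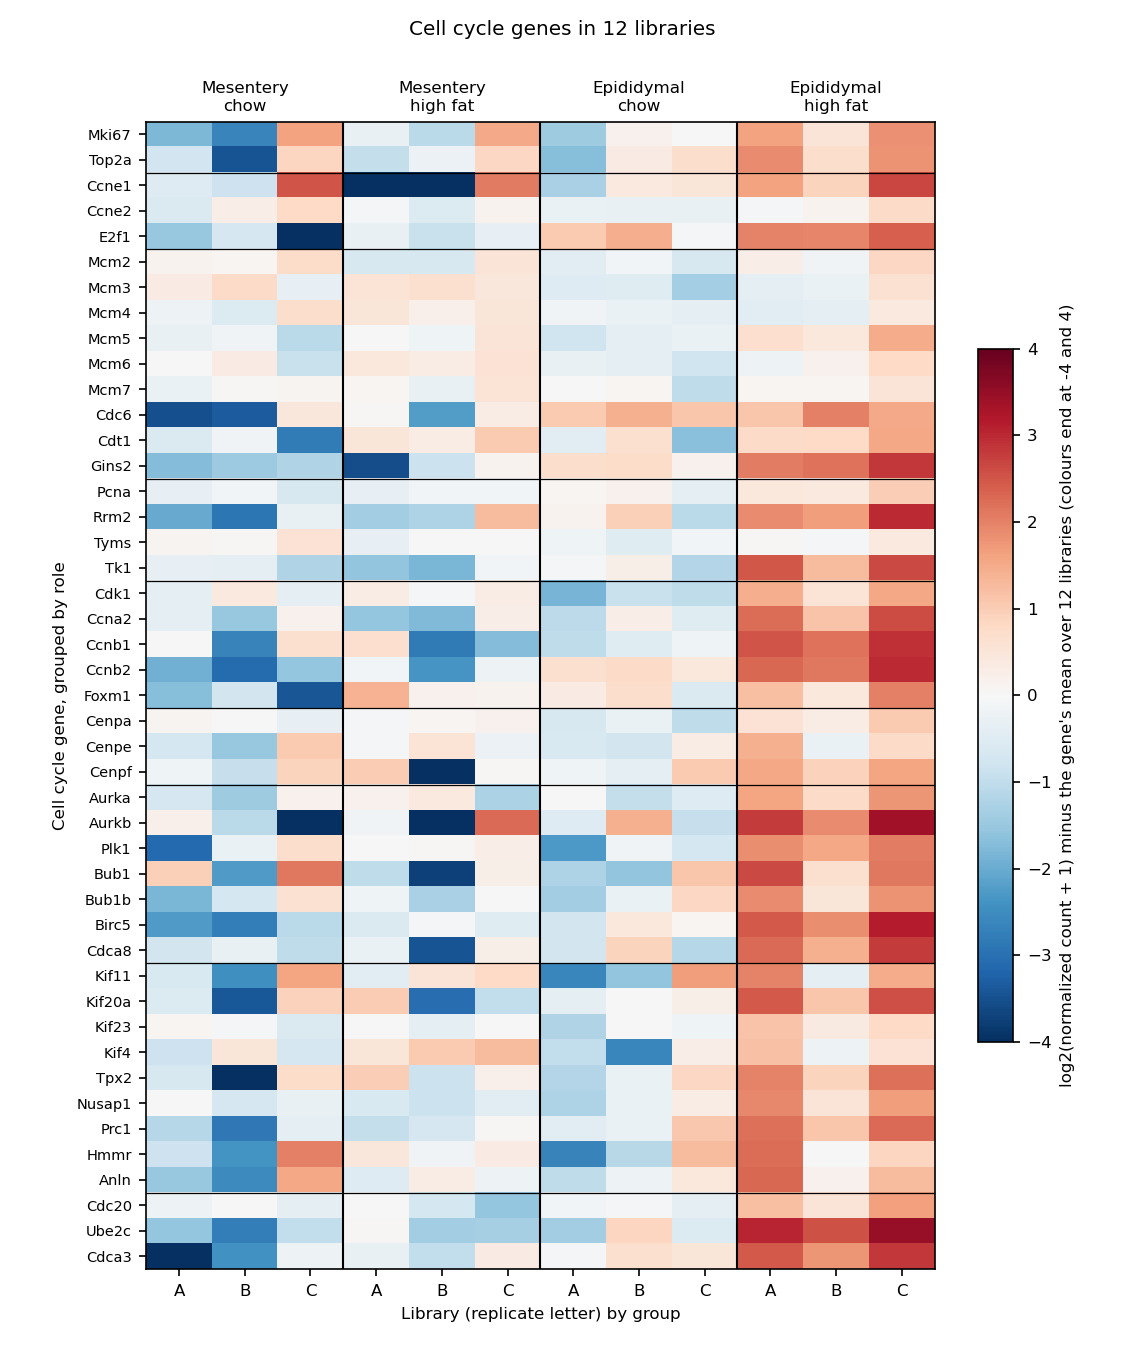
Heat map of 45 cell cycle genes (rows, grouped by role) in 12 libraries (columns, by group and letter). Colour is log2(normalised count + 1) minus the gene's own mean over the 12 libraries, with colours ending at -4 and 4. The 3 high-fat epididymal columns are mostly red, most of all library C, while the other 9 columns are mixed. Some genes, such as Mcm3 and Mcm4, lie below their own mean in high-fat epididymal libraries A and B.

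The 4 calls depended on single libraries. Without high-fat epididymal library C no member passed, and without high-fat epididymal library A, chow epididymal library A or chow epididymal library C the only call was Cdk1. Among the 3 high-fat epididymal libraries, C, the deepest of all libraries at 25397963 reads, was the highest for 34 members and B the lowest for 37. In pairs within a number range, libraries 50 to 53 alone gave a positive difference for 45 of 45 members with a median of 1.81, and libraries 87 and 88 alone gave 43 of 45 with a median of 1.56, the latter from 1 library a side.

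Markers of other cells moved along with the set. The 15 macrophage and leukocyte markers summed to 13987, 100399 and 8108 normalised counts on chow and to 231988, 158343 and 402728 on the high fat diet in the epididymal libraries; 15 of 15 had a positive change with a median of 2.89 and none passed the test. Of the 10 lipid-associated macrophage markers, all were higher in every high-fat library and 5 passed, Trem2, Spp1, Lgals3, Atp6v0d2 and Ctsk. The 15 pan-endothelial markers had a median change of -0.61, with 14 negative and none past the test. No macrophage marker of either list was at 0 in an epididymal library, and the lowest in the high-fat ones was at 142. Fibroblast markers were positive in 9 of 10, with a median of 1.61, and Col3a1, Lum and Mfap5 passed as higher. Adipocyte markers were negative in 8 of 8, with a median of -1.70, and Adipoq, Cfd and Retn passed as lower. The 10 smooth muscle and pericyte markers were all negative, with a median of -0.91 and none past the test. Cd68, a macrophage lysosomal protein, stood at 22983, 12006 and 26841 there, against 715, 2154 and 325 on chow. The part of any of these cells in the higher levels of the cell cycle genes was not tested. In bulk RNA, more cells of a dividing type and more cell cycle RNA per cell cannot be told apart.

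**Figure D2:**
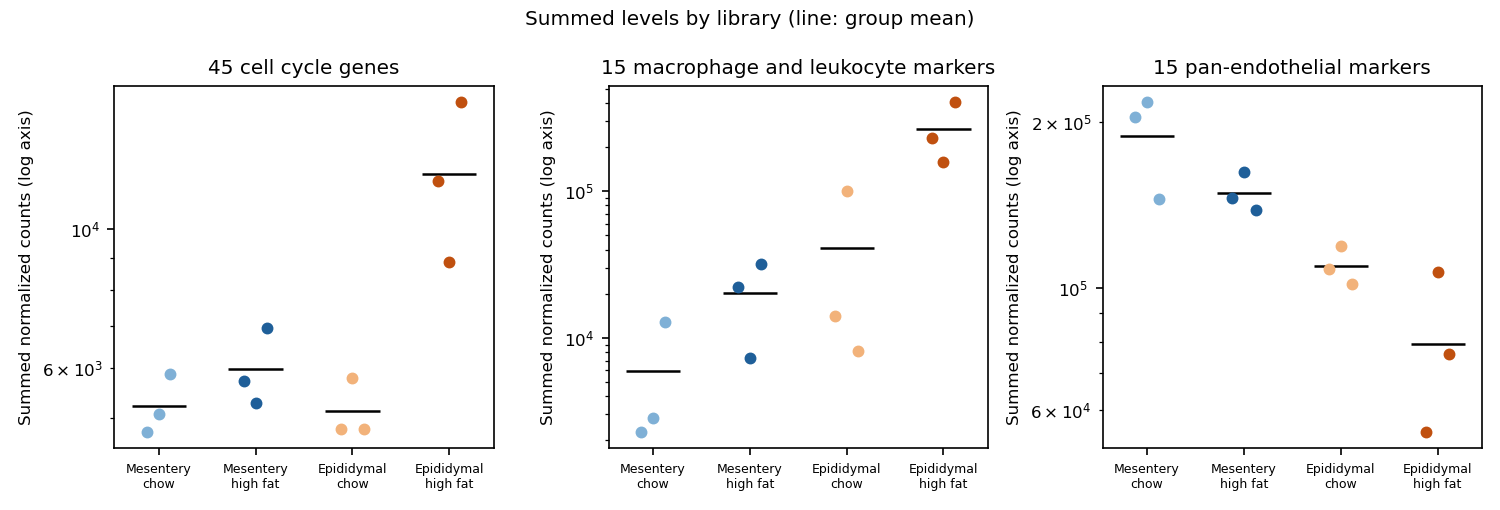
Summed normalised counts per library (points, log axis) in the 4 groups for the 45 cell cycle genes, 15 macrophage and leukocyte markers and 15 pan-endothelial markers; lines are group means. The cell cycle sum and the macrophage sum both reach their highest values in high-fat epididymal library C, at 15946 and 402728.

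Promoters of the members are shown here because the mitotic and the replication genes carried different motifs in this stretch. RefSeq promoter windows on build GRCm38.p6, 250 bases before to 50 after the gene start, were at hand for 37 of the 45 genes. The others were Ccne2, Mcm4, Gins2, Ccna2, Foxm1, Aurkb, Kif20a and Tpx2. The CHR motif, a short element of mitotic promoters, was searched as TTTGAA or TTCGAA, the E2F motif as TTTGGCGC, TTTCCCGC, TTTCGCGC or TTTGCCGC, and the CCAAT box as CCAAT, each on both strands. E2F words of opposite strands can overlap. The following stretches end at the base before the gene start and read 5′ to 3′ along the gene, with CHR and CCAAT in capitals for the first 3 and E2F and CCAAT in capitals for the last 2.
Cdk1: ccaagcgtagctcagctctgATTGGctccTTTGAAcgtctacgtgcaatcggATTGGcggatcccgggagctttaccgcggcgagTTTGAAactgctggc
Ube2c: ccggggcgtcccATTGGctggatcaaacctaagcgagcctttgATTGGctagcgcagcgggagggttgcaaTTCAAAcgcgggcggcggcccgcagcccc
Cdc20: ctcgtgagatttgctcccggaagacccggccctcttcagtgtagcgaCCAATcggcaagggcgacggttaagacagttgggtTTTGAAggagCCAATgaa
Mcm5: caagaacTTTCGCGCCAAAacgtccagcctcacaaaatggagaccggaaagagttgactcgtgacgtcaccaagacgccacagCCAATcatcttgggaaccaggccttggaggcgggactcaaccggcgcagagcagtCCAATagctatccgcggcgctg
Mcm6: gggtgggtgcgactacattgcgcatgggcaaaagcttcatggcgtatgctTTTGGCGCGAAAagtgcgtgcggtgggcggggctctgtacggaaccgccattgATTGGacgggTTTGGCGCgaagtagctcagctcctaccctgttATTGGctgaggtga

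In that build they lie at chr10:69352913-69353012 (minus strand) for Cdk1, chr2:164769829-164769928 (plus) for Ube2c, chr4:118437344-118437443 (minus) for Cdc20, chr8:75109349-75109508 (plus) for Mcm5 and chr1:128359706-128359865 (minus) for Mcm6. A CHR word was present in 20 of 24 mitotic members (83.3%), in 2 of 13 G1/S and replication members (15.4%), and in 18.4% of the 13172 tested genes with a window. An E2F word was present in 1 of the 24 mitotic members (4.17%), in 6 of the 13 replication members (46.2%), and in 4.02% of those tested genes. CCAAT boxes were found in 87.5%, 53.8% and 42.7% of the same sets. The single mitotic gene with an E2F word was Cdk1, and the replication genes with a CHR word were Mcm2 and Mcm7. Of the members with a window, Birc5, Nusap1, Ccne1, E2f1, Tyms and Tk1 held no match to any of the motifs. These matches describe letters in a window and show no binding.

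The genes of S-phase entry come first. Ccne1 and Ccne2 encode the E cyclins, which activate Cdk2 at the G1/S boundary, and E2f1 is a factor that switches on replication genes. E2f1 had normalised counts of 169, 222 and 78.6 in the chow epididymal libraries and of 322, 313 and 429.6 in the high-fat ones, so the groups did not overlap. Its log2 change of 1.28 (SE 0.85) did not pass (limma adjusted p = 1). Ccne1 stood at 5.48, 19.98 and 21.4 on chow against 48.3, 28.9 and 101 on high fat. Ccne2 stood at 52.5, 52.1 and 52.1 on chow against 61.8, 70.2 and 110.4 on high fat, the chow libraries being nearly equal. All 3 genes were thus without overlap between diets, with a median log2 change of 1.28, and none passed.

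The 9 genes of origin licensing and of the helicase had the lowest median log2 change of the roles, 0.74, and none passed the test. Mcm2 to Mcm7 form the ring that unwinds DNA, Cdc6 and Cdt1 load it, and Gins2 is part of its activator. Gins2 had the widest change, from 72.1, 73.8 and 50.04 to 185, 199.9 and 321 normalised counts, a log2 change of 1.81 (SE 0.76, limma adjusted p = 0.595). Mcm5 went from 101, 136 and 146 to 281, 236 and 493, without overlap, at 1.33 (SE 0.35, limma adjusted p = 0.151). Mcm3, Mcm6 and Cdt1 also did not overlap between diets. Mcm4 was at the other end, with 232, 210.2 and 195 on chow against 190.0, 196 and 334 on the high fat diet, groups that overlapped at a log2 change of 0.13. Mcm2 overlapped as well, with 95.5, 118 and 81.7 against 152, 115 and 228 and a log2 change of 0.70 (SE 0.39).

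All 4 genes of the fork clamp and of nucleotide supply were without overlap between diets in epididymal fat, and none passed. Tk1, the thymidine kinase that salvages thymidine in S phase, came nearest. Its normalised counts were 73.6, 90.4 and 33.7 on chow and 434, 187 and 483 on the high fat diet, a 5.58-fold ratio of means and a log2 change of 2.46 (SE 0.56, limma adjusted p = 0.0886). Rrm2, the ribonucleotide reductase subunit made in S phase, stood at 94.8, 166 and 39.8 and 319, 277 and 681, with high-fat library C far above the other two. Pcna, the clamp that holds the polymerase on DNA, went from 1201, 1287 and 879 to 1530.0, 1520.4 and 2269.8, a log2 change of 0.65 (SE 0.21, limma adjusted p = 0.313). Tyms, the thymidylate synthase, had the smallest log2 change of the 4, 0.39 (SE 0.21).

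Among the drivers of mitotic entry, Cdk1 rose. It had 46.2, 91.2 and 83.7 normalised counts in the chow epididymal libraries and 465, 247 and 499.7 in the high-fat ones, means of 73.7 ± 24.1 and 404 ± 137 (SD, n = 3 each). Every high-fat library lay more than 2-fold above every chow library, and the log2 change was 2.43 (SE 0.35, limma adjusted p = 0.00837). Cdk1 kept its call in 14 of 16 alternatives, with adjusted p from 8.72e-08 to 0.0970. Its partners showed changes of like size with wider errors. Ccnb1, the B cyclin that carries Cdk1 into mitosis, stood at 21.9, 32.1 and 39.8 on chow and 265, 209.8 and 352 on the high fat diet, an 8.81-fold ratio of means and a log2 change of 3.11 (SE 0.91, limma adjusted p = 0.212). Ccna2, the A cyclin of S phase and G2, went from 18.8, 48.7 and 28.6 to 191, 89.2 and 252, and Ccnb2 from 107, 116 and 90.9 to 337, 297 and 544. These 3 cyclins did not overlap between diets and did not pass. Foxm1, the factor that switches on G2 and mitotic genes, was low, at 12.5, 16.5 and 6.13 and 23.6, 13.2 and 42.5, and its groups overlapped.

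**Figure D3:**
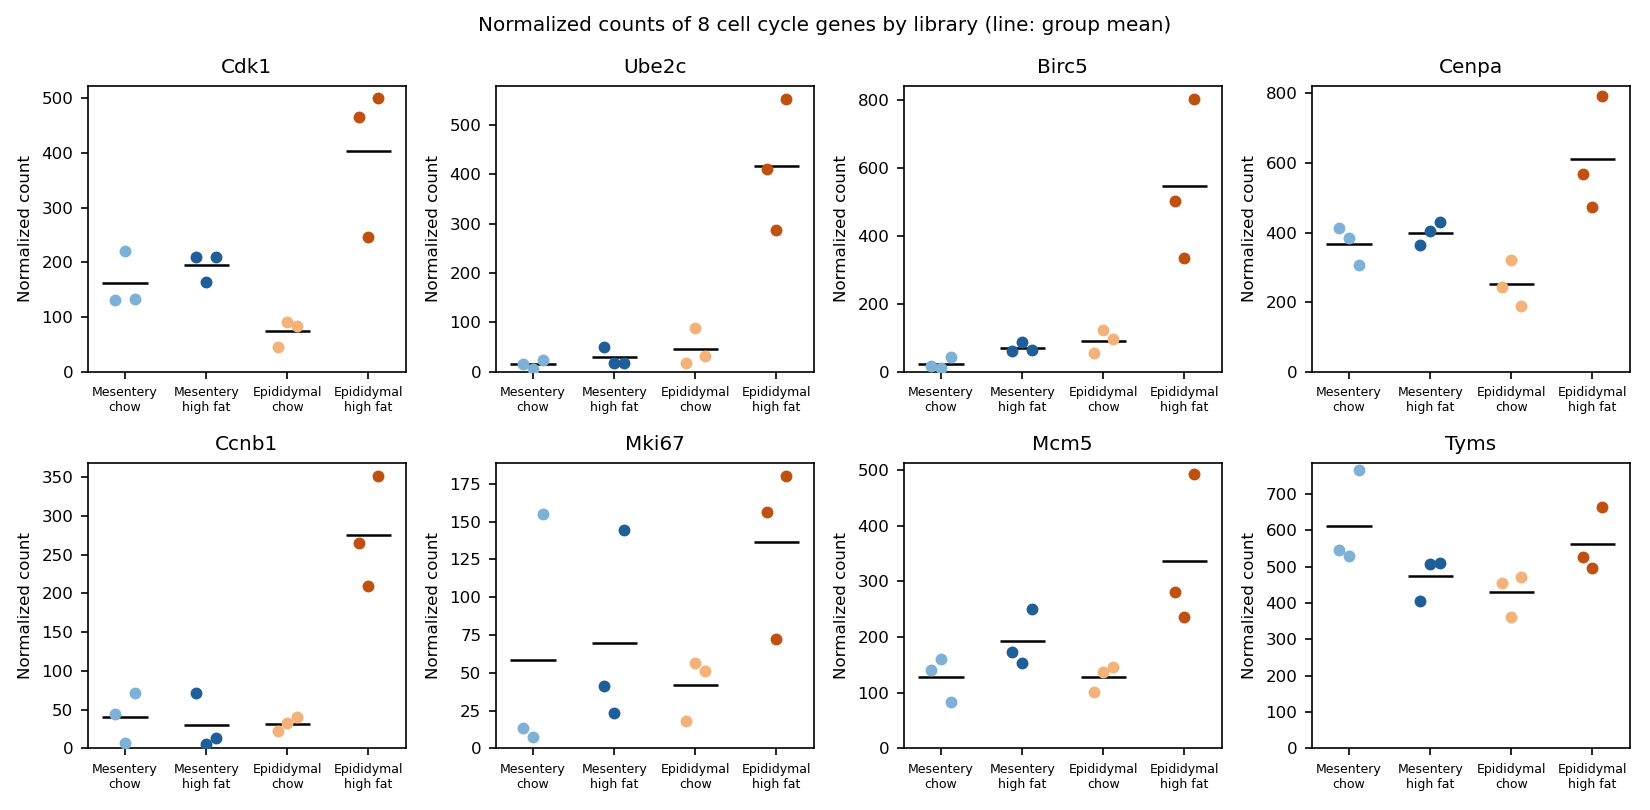
Normalised counts of 8 cell cycle genes in each library (points) of the 4 groups, with the group mean as a line and a linear axis from 0. In Cdk1, Ube2c, Birc5, Cenpa, Ccnb1 and Mcm5 the highest library is high-fat epididymal C, while for Tyms it is chow mesentery C at 766.

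The 7 mitotic kinases, checkpoint genes and chromosomal passenger genes had a median log2 change of 2.48 in epididymal fat, and Birc5 passed the test. Birc5, also known as survivin, is a subunit of the chromosomal passenger complex. It rose from 54.8, 122 and 97.02 normalised counts on chow to 501, 334 and 801 on the high fat diet, with no overlap and a log2 change of 2.55 (SE 0.49, limma adjusted p = 0.0361). Plk1, the Polo kinase of mitotic entry and spindle poles, had the widest change of the 7, from 4.70, 24.3 and 16.3 to 101, 81.8 and 115, at 2.87 (SE 0.90, limma adjusted p = 0.272). Aurkb, the Aurora kinase of the passenger complex, stood at 16.4, 65.2 and 12.3 and 171, 91.7 and 255, and Cdca8, its borealin subunit, at 32.9, 103 and 24.5 and 266, 149 and 390.0. In both, as in Aurka, the diets did not overlap. Bub1b, a spindle checkpoint protein, had the smallest log2 change, 1.67, with chow library C at 75.6 above high-fat library B at 60.3. Bub1, the checkpoint kinase, overlapped in the same way.

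Of the 3 centromere genes, Cenpa rose. Cenpa is the histone H3 variant that marks centromeres, and its normalised counts were 244, 321 and 189 on chow and 568, 474 and 791 on the high fat diet. The groups did not overlap, and its log2 change of 1.28 (SE 0.25) was small beside that of the other called members but also had the smallest error (limma adjusted p = 0.0374). Cenpe, a kinetochore motor, and Cenpf, a large kinetochore protein, overlapped between diets, with log2 changes of 1.00 and 1.18.

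The 3 genes of mitotic exit did not overlap between diets, and Ube2c rose. Ube2c is the ubiquitin-conjugating enzyme that works with the anaphase-promoting complex. It stood at 18.01, 89.5 and 32.7 normalised counts on chow and 410.3, 287 and 551 on the high fat diet. That is an 8.91-fold ratio of means, and the log2 change of 3.38 (SE 0.68, limma adjusted p = 0.0478) was the largest of the 45 members. Its call was the least steady of the 4, kept in 5 of 16 alternatives, against 9 each for Birc5 and Cenpa. Cdc20, the activator of that complex, went from 92.4, 98.2 and 78.6 to 234, 144 and 314 (log2 change 1.29, limma adjusted p = 0.284). Cdca3, a trigger of mitotic entry named with this group, went from 45.4, 73.8 and 66.4 to 264, 165 and 339.7.

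No gene of the spindle and cytokinesis group passed in epididymal fat; the 9 had a median log2 change of 1.78, between 1.23 for the midbody motor Kif23 and 2.08 for the cytokinesis motor Kif20a. Nusap1, a microtubule bundler, had the lowest adjusted p of the 9, with 26.6, 52.996 and 78.6 normalised counts on chow and 245, 92.5 and 207 on the high fat diet (log2 change 1.78, SE 0.50, limma adjusted p = 0.19). Kif20a, Kif23, Tpx2, Nusap1 and Prc1 did not overlap between diets, whereas Kif11, Kif4, Hmmr and Anln did. Kif11, the motor that separates spindle poles, spread widely within both groups, with 6.27, 13.9 and 142 on chow and 175, 33.9 and 125 on the high fat diet. Hmmr, a spindle protein, was the 1 member of 45 past the test between the number ranges. It was higher in libraries 87 and 88 by 2.23 on the log2 scale (limma adjusted p = 0.045). The share of all genes past that test is not given here. Other members missed the threshold with effects of either sign, such as 1.80 for Kif11 and -1.29 for E2f1. Among the epididymal libraries of each diet, Kif11 and Hmmr were highest in chow library C and high-fat library A, numbered 87 and 88. There the olfactory and vomeronasal receptor genes, silent in most tissues, took 2014 and 2158 CPM, against 105 to 193 in the other 4 epididymal libraries, and their part in these values was not tested.

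The markers most used for dividing cells did not pass. Mki67 had 18.01, 56.5 and 51.1 normalised counts in the chow epididymal libraries and 156, 72.7 and 180.5 in the high-fat ones, groups that did not overlap, with a log2 change of 1.74 (SE 0.98, limma adjusted p = 0.919). Top2a, the topoisomerase that untangles replicated chromosomes, stood at 20.4, 86.01 and 112 and 259, 111 and 243, where chow library C and high-fat library B were level (log2 change 1.69, SE 0.94). Both genes also reached high values in mesentery library C of each diet, as given next.

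In the mesentery, the diet moved no member past the test. There 0 of 45 were called by limma, where 0.0135% of all genes were in either direction and 0.00899% as higher, and 6 had an unadjusted p under 0.05, against 6.15% of all genes; edgeR and DESeq2 called 0 as well. The sums over the 45 genes were 4746, 5062 and 5878 on chow and 5721, 5276 and 6942 on the high fat diet, groups that overlapped. The change was positive in 32 of 45 members where 49.7% of all genes were positive, and the member median was 0.40 against -0.00 over all genes. With equal library totals these medians were 0.54 and 0.13, and 33 members were positive. Cdt1, Foxm1, Birc5 and Kif4 were higher in every high-fat library, 4 of 45 against 4.47% of all genes, and Tyms was lower in every one, 1 of 45 against 5.14%. The macrophage and leukocyte markers had a median change of 1.68 in the mesentery, 14 of 15 positive and none past the test, and their part was not tested there either.

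Birc5 had the lowest p of the mesentery members, with 18.2, 12.5 and 42.2 normalised counts on chow and 60.8, 87.3 and 64.2 on the high fat diet, a log2 change of 1.66 (SE 0.49, limma adjusted p = 0.556). Cdk1 stood at 132, 221 and 132 and 210.4, 165 and 210.5 there, overlapping groups with a log2 change of 0.30 (SE 0.35). Foxm1 was near the floor on chow, at 2.28, 5.38 and 0, and at 27.1, 11.1 and 10.9 on the high fat diet. Replication genes were mixed. Pcna was flat, with 911, 1067 and 734 and 914, 1059 and 1076; Mcm5 had a log2 change of 0.61 and Mcm2 one of -0.57, both with overlapping groups. Cdt1, the licensing factor, went from 36.4, 49.3 and 7.04 to 77.6, 67.9 and 115, and the ring subunits had log2 changes no larger than 0.63.

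Single libraries stood out in the mesentery. Mki67 had 13.7, 7.17 and 155 normalised counts on chow and 41.2, 23.6 and 144 on the high fat diet, with library C of each group far above its mates. Top2a was also highest in library C of each group, with 39.9, 5.38 and 127 and 34.6, 58.2 and 123. In these same C libraries, the receptor genes took 3178 and 1993 CPM against 261 to 981 in the other mesentery libraries. T and B cell markers summed to 276, 363 and 1109 normalised counts on chow and to 388, 281 and 8455 on high fat. Macrophage and leukocyte markers summed to 2283, 2822 and 12732 on chow and to 22164, 7289 and 31616 on high fat. The part of the receptor genes and of these cells in the Mki67 and Top2a values was not tested. Ccne1 was listed at 0 in high-fat mesentery libraries A and B, where 3 reads were worth 2.81 and 4.16 normalised counts, and at 66.2 in C; on chow it had 10.2, 8.06 and 90.1, for a log2 change of -2.37 (SE 1.499). Ccne2 and E2f1 had log2 changes of -0.33 and 1.92, and Ccnb1 one of -0.62 with values from 5.54 to 72.0 among the high-fat libraries. Chow mesentery library C, numbered 87, was the shallowest library at 8348897 reads and the highest of its group for 29 of 45 members. Within libraries 50 to 53 the diet difference was positive for 31 of 45 members with a median of 0.49; within 87 and 88 it was positive for 21 with a median of -0.01.

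**Figure D4:**
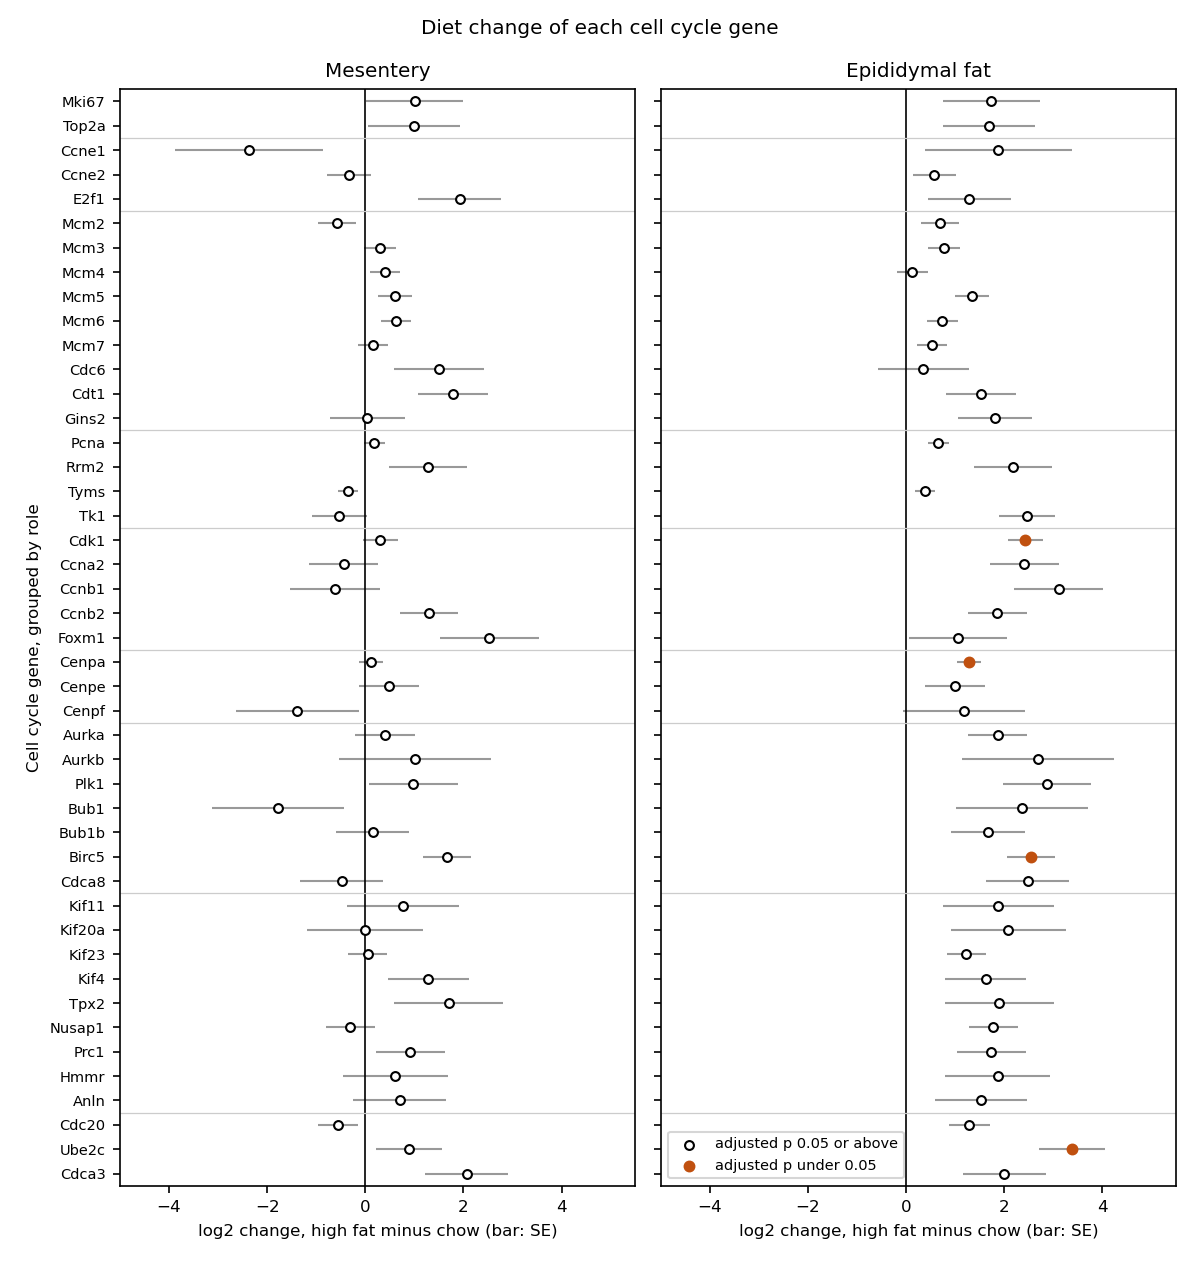
Fitted log2 change (high fat minus chow) of each of the 45 genes in mesentery (left) and epididymal fat (right), with bars of 1 SE; filled points passed the adjusted p threshold. All 45 points on the right lie above 0 and 4 are filled, whereas on the left 32 lie above 0 and none is filled.

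Whether the diet change differed between the tissues was tested as an interaction. No member passed, 0 of 45 where 0.0045% of all genes did by limma; edgeR called 0 members and DESeq2 1. The diet change was the larger in epididymal fat for 39 of 45 members, where 56.3% of all genes were positive, with a median difference of 0.90 against 0.11 over all genes, and 12 members had an unadjusted p under 0.05, against 4.71% of all genes. With equal library totals 37 were positive, at medians of 0.64 for the members and -0.16 for all genes. In the main fit Cdk1 was among the 12, with a difference of 2.13 (SE 0.50, unadjusted p = 0.000926, limma adjusted p = 0.338). It was also the member that DESeq2 called, where 0.598% of all genes passed. Tk1 differed by 2.99 (SE 0.80, limma adjusted p = 0.468) and Ccnb1 by 3.73 (SE 1.29, limma adjusted p = 0.799). Birc5 had a difference of 0.89 (SE 0.69), and in the mesentery too it lay higher in every high-fat library. Ccne1 had the largest difference, 4.25 (SE 2.12), in which the libraries listed at 0 enter, and Foxm1 the lowest, -1.47.

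Comparing the tissues on chow, which shares the chow libraries with the diet comparisons, the members split. E2f1, Cdc6, Ccnb2, Birc5 and Cdca3 were higher in epididymal fat past the test (limma), 5 of 45 where 12.8% of all genes passed and 7.32% passed as higher. The difference was positive for 28 of 45 members where 46.8% of all genes were, with a median of 0.15 against -0.08 over all genes. Without chow mesentery library B it was positive for 19 and the median was -0.22, so the direction of the set as a whole rested on that library. E2f1 had 27.3, 50.2 and 1.41 normalised counts in the mesentery and 169, 222 and 78.6 in epididymal fat, a log2 difference of 3.25 (SE 0.85, limma adjusted p = 0.0233). Its value in chow mesentery library C was 1 read, under the floor of 4.22 there, so the difference has no fixed size. Ccnb2 stood at 17.1, 7.17 and 22.5 and 107, 116 and 90.9, a difference of 2.79 (SE 0.60, limma adjusted p = 0.00802). Neither gene overlapped between tissues, and Ccnb2 kept its call in 16 of 16 alternatives.

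Cdc6 was at 4.55, 5.38 and 87.3 in the chow mesentery and 132, 171 and 138 in epididymal fat, a log2 difference of 3.33 (limma adjusted p = 0.0307). Birc5 differed by 1.97 (limma adjusted p = 0.0176) and Cdca3 by 2.72, at the edge of the threshold (limma adjusted p = 0.04999). In chow mesentery library A, Cdca3 was under the floor, at 1.14 normalised counts, so its difference has no fixed size. Calls were kept in 6 of 16 alternatives for Cdca3, 9 for Cdc6, 13 for Birc5 and 14 for E2f1. At the other end, Cdk1 stood at 132, 221 and 132 in the mesentery and 46.2, 91.2 and 83.7 in epididymal fat, a difference of -1.14 (SE 0.35) that just missed (limma adjusted p = 0.0515). Mcm3 was close to that, at -1.03 (SE 0.33, limma adjusted p = 0.0624). Mcm2, Mcm3, Tyms and Cdk1 were lower in every epididymal library, 4 of 45 against 12.7% of all genes, and 7 members were higher in every one, against 16%. No member was called lower by limma, against 5.47% of all genes, and 12 members had an unadjusted p under 0.05, against 25.4%. DESeq2, the fit with the number range as a covariate, the filter at a mean of 50 and the fit without chow mesentery library C each called Mcm3 and Cdk1 lower. The count of calls was 2 without chow mesentery library A or B, 2 without chow epididymal library A, 1 without B and 3 without C. Over all genes, 7.46%, 8.77%, 6.85%, 6.82% and 12.7% passed in these fits, in that order. Between these groups all 8 acinar genes passed as lower in epididymal fat. Of the 15 pan-endothelial markers 7 passed as lower and 1, Cldn5, as higher, with a median of -0.90. Passing as higher were 8 of 10 fibroblast, 8 of 10 smooth muscle and pericyte and 5 of 15 macrophage and leukocyte markers. So did 7 of 8 adipocyte, 5 of 7 tested mesothelial and all 4 tested red blood cell markers. The part of these cells in the values of the members was not tested. Within libraries 50 and 51 the difference was positive for 31 members with a median of 0.44, and within library 87 it was positive for 23 with a median of 0.02.

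On the high fat diet, in libraries shared with the diet comparisons but not with the tissue comparison on chow, 11 of 45 members were higher in epididymal fat past the test (limma), where 8.34% of all genes passed, 4.91% as higher and 3.43% as lower. They were Ube2c, Ccnb1, Gins2, Ccnb2, Cdca8, Tk1, Ccna2, Birc5, Nusap1, Cdc20 and Pcna. The difference was positive in 41 of 45 members where 53% of all genes were, with a median of 1.61 against 0.06. With equal library totals it was positive in 40, with medians of 1.42 and -0.12. There 10 members were called, where 8.94% of all genes passed. In 24 members every epididymal library lay above every mesentery library, which held for 15.1% of all genes. Ube2c had 50.5, 18.02 and 18.8 normalised counts in the mesentery against 410.3, 287 and 551 in epididymal fat, a log2 difference of 3.91 (SE 0.68, limma adjusted p = 0.00323). Gins2 stood at 2.81, 23.6 and 48.4 and 185, 199.9 and 321, with a difference of 3.78 (SE 0.76, limma adjusted p = 0.00822). Its 2.81 in high-fat mesentery library A was 3 reads, at the floor, so the difference has no fixed size. The same holds for Cdca8, whose 4.16 in high-fat mesentery library B was also 3 reads. For Ube2c and Gins2 the tissues did not overlap.

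Tk1 had 25.3, 20.8 and 71.1 normalised counts in the high-fat mesentery, a difference of 3.30 (SE 0.56, limma adjusted p = 0.00302), and Ccnb1 had 72.01, 5.54 and 12.8, a difference of 3.85 (SE 0.91, limma adjusted p = 0.0204). The mitotic cyclins and Cdk1 as a role had a median difference of 3.01, the passenger and checkpoint genes 2.86 and the licensing genes 0.42. Cdk1 differed by 0.99 without overlap and without passing (limma adjusted p = 0.114), and it stood at 210.4, 165 and 210.5 in the high-fat mesentery. Mcm3, Mcm4, Mcm6 and Kif4 were the members with a negative difference, the lowest being -0.56 for Mcm3. Tk1, Ccnb2, Birc5 and Ube2c were called in all 16 alternatives. Without high-fat epididymal library C these 4 were the only calls, where 3.27% of all genes passed. Without high-fat mesentery library B 6 members were called, where 3.66% of all genes passed. Pcna and Nusap1 kept their calls in 10 of 16 alternatives, Ccna2, Ccnb1 and Cdca8 in 11, and Gins2 and Cdc20 in 15. The macrophage and leukocyte markers were higher in epididymal fat on this diet, 11 of 15 past the test with a median difference of 3.92, and 10 of 15 pan-endothelial markers passed, 9 of them as lower. Fibroblast markers passed as higher in 10 of 10, with a median of 3.77, and lipid-associated macrophage markers in 8 of 10. Smooth muscle and pericyte markers passed as higher in 5 of 10, and all 8 acinar genes passed as lower. All 4 tested red blood cell markers passed as higher, with a median of 6.86, as did 2 of 7 tested mesothelial markers. No adipocyte or T and B cell marker passed. What these cells add to the tissue difference was not tested. The pairs within libraries 52 and 53 gave a positive difference for 41 members with a median of 1.71, and the pair numbered 88 gave 40 with a median of 1.79.

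**Figure D5:**
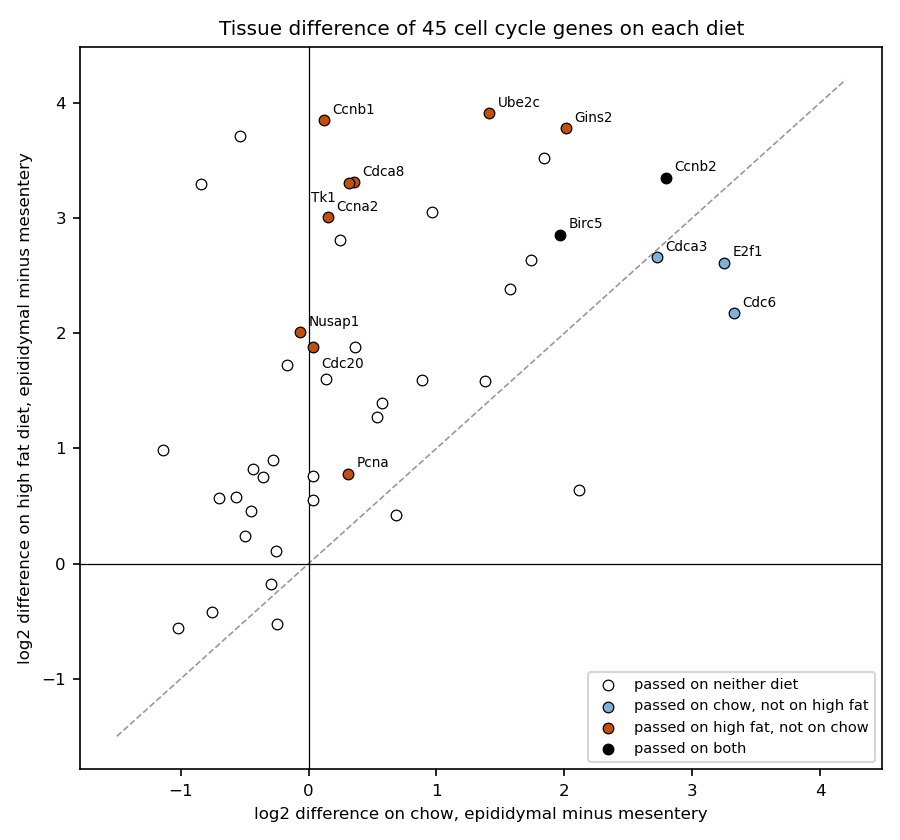
Tissue difference (epididymal minus mesentery, fitted log2) of each of the 45 genes on chow (horizontal axis) and on the high fat diet (vertical axis), coloured by which comparison passed; the dashed line marks equal values. Birc5 and Ccnb2 passed on both diets, and Ccnb1, Tk1, Cdca8 and Ccna2 lie near 0 on chow and above 3 on the high fat diet. Cdca8 was at the floor in high-fat mesentery library B, so its height has no fixed size.

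Other genes of the cycle were read from a list of 170, of which 169 were in the table and 164 were tested. In epididymal fat, 134 of the 164 were positive on the high fat diet with a median log2 change of 0.58, and 3 passed (limma). Over all genes, 57.9% were positive with a median of 0.10, and 0.549% passed. Spc25, a subunit of the kinetochore complex that grips microtubules, rose from 44.6, 83.4 and 45.96 to 302, 228 and 390.0 normalised counts (2.41 on the log2 scale, limma adjusted p = 0.0171). Stmn1, which destabilises microtubules, rose from 1084, 1344 and 678 to 3247, 2778 and 4745 (1.81, limma adjusted p = 0.0397). Cdkn2c, an inhibitor of the kinases Cdk4 and Cdk6, fell, with 1446, 1772 and 1409 on chow against 498, 879.5 and 733 (-1.16, limma adjusted p = 0.0319). All 31 other kinetochore and checkpoint genes and all 26 tested spindle and cytokinesis genes were positive, with medians of 1.08 and 1.52. The 16 tested genes of the pocket protein, E2F and MuvB group were split, 9 positive and 7 negative, with a median of 0.10.

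The inhibitors Cdkn1a and Cdkn1c did not pass on diet in either tissue. Cdkn1a, the p21 target of p53, had 5636, 4266 and 3109 normalised counts on chow and 4829.6, 6532 and 6853 on high fat in epididymal fat (log2 change 0.51) and a change of 0.44 in the mesentery. Cdkn1c, the p57 inhibitor, stood at 2454, 2010.4 and 1581 and 637, 2090.2 and 1035 in epididymal fat (log2 change -0.83, limma adjusted p = 0.757), and changed by 0.33 in the mesentery. In the mesentery 0 of the 164 other cell cycle genes passed on diet by limma, 14 had an unadjusted p under 0.05, and their median change was 0.08. Over all genes these were 0.0135%, 6.15% and -0.00. Between tissues on chow, 9 of the 164 were called higher and 4 lower in epididymal fat, where 7.32% and 5.47% of all genes were. Neither share exceeded that of all genes. The widest were Nuf2 (4.23), Sgo2a (3.82) and Spc24 (2.49) above and Stmn1 (-1.52), Gmnn (-0.99) and Dnmt1 (-0.79) below. Nuf2 and Sgo2a were at or under 3 reads in all chow mesentery libraries, so their differences have no fixed size. Between tissues on the high fat diet 6 of the 164 were called higher and 2 lower, where 4.91% and 3.43% of all genes were. Again neither share exceeded that of all genes. The widest were Pbk (4.86), Fam83d (4.23) and Spc25 (2.51) above, and the 2 below were Pttg1 (-1.16) and Timeless (-0.76).

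The genes whose pattern over the 12 libraries was most like the mean log2 level of the 45 members were Pycard, Pqlc3, Qpct, Tbxas1 and Myo1f, with Pearson's r of 0.975, 0.974, 0.961, 0.959 and 0.957. These are correlations over libraries that share groups and depth, given as a description. Pycard, the inflammasome adaptor ASC, had 137, 299 and 185 normalised counts in the chow epididymal libraries and 663, 505 and 1039 in the high-fat ones. Its order among the latter, C highest and B lowest, was that of 34 and 37 of the 45 members at either end.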

How the data were processed

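RNA of sorted reporter-positive cells was sequenced in 12 libraries, 4 groups of 3. The deposited table holds normalised counts, a depth-adjusted signal per gene made by the authors; the submitters' processing notes name STAR 2.7.9a, featureCounts, Subread, DESeq2 1.34.0 and the build mm39, without roles. The annotation, the strand setting and any filter are not given in the sources used here. Dividing each column by its smallest step gave whole reads for 100% of values within 0.01, and the lowest gene total was 51 reads.

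From the table, log2(normalised count + 1) of the 22238 genes with a mean of at least 10 was fitted with limma 3.58.1 (R 4.3.3, trended variance, 4 group means, all 12 libraries), and p-values were adjusted over all these genes by Benjamini-Hochberg with a threshold of 0.05. A fold on this scale understates the change of low genes. The fitting code was tested on simulated data. Alternatives were pseudocounts of 0.5 and 5, no filter or a mean of at least 50, columns rescaled to the same total, edgeR 4.0.16 and DESeq2 1.42.0 on the recovered reads, a replicate block, the number range as a covariate, libraries 50 to 53 only, and each library left out.

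The members and the lists were chosen with earlier results of these data known. Members past the threshold are named, together with a fixed set (Mki67, Top2a, Cdk1, Ccnb1, Birc5, Mcm2, Mcm5, Pcna, Ccne1, Ccne2, E2f1, Cdkn1a and Cdkn1c), the highest and lowest of each role, up to 3 other cell cycle genes per direction, and the 5 genes most correlated with the members; further members were chosen after their values were seen. Mitochondrial reads took 2.50 to 20.6% of reads, and 694 olfactory and vomeronasal receptor genes took 105 to 3178 CPM. Promoter windows came from RefSeq on GRCm38.p6, another build than that of the counts. Genes are reported by symbol as the file gives them.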

Additional observations from a re-analysis of the deposited data

Results flagged for a closer look

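Tyms, the thymidylate synthase, moved in opposite directions with the diet in the 2 tissues, every library of 1 diet lying beyond every library of the other. In the mesentery it had 544, 528 and 766 normalised counts on chow and 405, 507 and 509.8 on the high fat diet, a log2 change of -0.36. In epididymal fat it had 456, 361 and 471 and 526, 495 and 665, a change of 0.39. The difference between these changes was 0.74 (SE 0.30), with an unadjusted p of 0.0254 and an adjusted p of 0.958 over all genes by limma, so it did not pass.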

How the results depend on the processing

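Under all 16 alternatives for each diet or tissue comparison and 22 for the interaction, the median log2 change over the members moved by less than the spread between libraries and no called gene reversed. The median kept its sign except between tissues on chow, where it went from 0.15 to -0.22 without chow mesentery library B. The counts of calls moved, and the cause was not tested. For diet in epididymal fat, where 4 members and 122 genes were called, DESeq2 called 12 and 546, edgeR 1 and 29, libraries 50 to 53 alone 0 and 31, and equal totals 2 members; leaving out 1 library gave 0 to 4 members and 23 to 168 genes. For diet in the mesentery, where 3 genes were called, DESeq2 called 154, edgeR 1, libraries 50 to 53 alone 20 and a mean of at least 50 gave 7; leaving out 1 library gave 1 to 37. Between tissues on chow (5 members, 2843 genes), edgeR called 3 members and 8.92% of all genes. Libraries 50 to 53 alone gave 8 members and 4349 genes. Leaving out 1 library gave 1 to 7 members and 1516 to 3278 genes. Between tissues on the high fat diet (11 members, 1854 genes), DESeq2 called 2931 genes and edgeR 1021, and leaving out 1 library gave 4 to 11 members and 728 to 1741 genes. For the interaction (0 members, 1 gene), DESeq2 called 1 member and 133 genes, libraries 50 to 53 alone 11 genes and a mean of at least 50 gave 3; leaving out 1 library gave 1 to 20 genes. Depth limits the members under 50 normalised counts most, where 3 reads are worth up to 4.22.

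With a replicate block (letter for diet, label number for tissue), 2 members were called for diet in epididymal fat. They were Cdk1 and Birc5, and 0.468% of all genes passed. Between tissues on chow 7 members were called (5 higher, and Mcm3 and Cdk1 lower), where 12.7% of all genes passed. Between tissues on the high fat diet 15 were called, where 8.5% of all genes passed. For the interaction 2 genes were called, none of them a member. The mean correlation of deviations between libraries of the same letter or number was 0.0045 for diet in the mesentery, -0.30 for diet in epididymal fat, 0.38 between tissues on chow (lowest 0.0273) and -0.04 between tissues on the high fat diet, and 3, 0, 5 and 2 of 6 libraries correlated best with their own letter. On chow the mean was -0.18 between tissues for different numbers, so libraries of 1 number deviated together on average there. They may therefore not be independent between tissues. The main fit still took the samples to share only a number, so its tissue tests on chow ignore this pairing.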
